A study of Mus musculus with 23 samples.

Results

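The comparison described here is of a sulforaphane (SFN) diet with a control diet in astrocytes that carry a deletion of Aldh7a1, the gene of the lysine-degrading enzyme ALDH7A1. It rests on 13 of the 23 libraries of the series, 6 from SFN-fed cKOAstro mice and 7 from cKOAstro mice on the control diet. The libraries came from astrocytes sorted from the cerebral cortex with ACSA-2 magnetic beads and were read by RNA sequencing. The purpose of the diet in the study was to engage NRF2 in astrocytes that lack ALDH7A1.

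All mice were labelled as males of postnatal day 70, and all had received 4-hydroxytamoxifen on postnatal days 3 and 4, the ConAstro mice included. cKOAstro mice were Slc1a3-CreER/+; Aldh7a1-Flox/Flox, and ConAstro mice were Aldh7a1-Flox/Flox littermates without CreER. SFN-fed mice received the SFN diet from postnatal day 21 to day 70 and the others received the control diet. The CreER is driven by 1 allele of Slc1a3, the gene of the glutamate transporter GLAST, so deletion is limited to cells in which Slc1a3 was active at the time of tamoxifen. The labels do not say whether each library came from 1 mouse, and the p-values below measure the spread between libraries.

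The members were chosen by their labels and by measured values of 3 genes, which are given here as a description with no test. Levels are in CPM, read counts scaled to library size with the trimmed mean of M values (TMM). In the 7 cKOAstro libraries on the control diet Aldh7a1 lay between 45.9 and 77.2 CPM, Slc1a3 between 1809 and 2870 CPM and Esr1, part of whose product is fused to Cre in CreER, between 16.0 and 22.6 CPM. In the 6 SFN-fed libraries Aldh7a1 lay between 43.0 and 56.5 CPM, Slc1a3 between 1559 and 2792 CPM and Esr1 between 16.9 and 24.8 CPM. The library labelled SFN-fed cKOAstro replicate 2 was left out because it held 222 CPM of Aldh7a1, 4436 CPM of Slc1a3 and 0.533 CPM of Esr1. Those values lie in or near the ranges of the 4 control-diet ConAstro libraries, which were 207 to 219.9 CPM for Aldh7a1 and 3964 to 4979 CPM for Slc1a3. The library labelled SFN-fed ConAstro replicate 1 stood on the other side, at 55.7 CPM of Aldh7a1 and 19.96 CPM of Esr1, and was left out of every fit that used ConAstro libraries. The counts are per gene and do not separate the deleted exons from the rest of Aldh7a1.

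NRF2, encoded by Nfe2l2, is a transcription factor that KEAP1 holds in the cytoplasm and passes to the CUL3 ubiquitin ligase for degradation. Electrophiles such as SFN modify cysteines of KEAP1, after which NRF2 accumulates, pairs with small MAF proteins and binds antioxidant response elements near genes of glutathione synthesis, quinone reduction, thioredoxin recycling and NADPH supply. In the brain, astrocytes are known for strong NRF2 activity and for supplying glutathione precursors to neurons.

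The motif searched for the antioxidant response element was TGACNNNGC on either strand, in RefSeq promoter windows of GRCm38.p6 that run from 250 bases before to 50 after a gene's start. The windows below show how it lies before a RefSeq start of 4 NRF2 target genes and of Nfe2l2 itself. The levels of these genes are the subject of the diet comparison. Capitals mark the motif.

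Gclm: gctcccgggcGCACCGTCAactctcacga
Txnrd1: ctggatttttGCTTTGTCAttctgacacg
Prdx1: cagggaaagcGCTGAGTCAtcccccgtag
G6pdx: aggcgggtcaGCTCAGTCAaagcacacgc
Nfe2l2: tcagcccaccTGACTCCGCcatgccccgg

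These windows lie at chr3:122245413-122245441 (plus strand) for Gclm, the modifier subunit of glutamate-cysteine ligase, and at chr10:82859104-82859132 (plus strand) for Txnrd1, cytosolic thioredoxin reductase. They lie at chr4:116685456-116685484 (plus strand) for Prdx1, a peroxiredoxin, and at chrX:74428919-74428947 (minus strand) for G6pdx, which feeds the pentose phosphate pathway. In the GENCODE annotation G6pdx spans chrX:74409483-74429194, so its window lies before a RefSeq start but inside the GENCODE gene. The Nfe2l2 window lies at chr2:75704885-75704913 (minus strand). Of the 76 NRF2 and redox genes described below, 69 had a promoter window and 17 of these held the motif, or 24.6%, against 16.6% of the 12631 tested genes with a window and 12.4% of all 32851 windows. A match is a description of letters and not a binding site.

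The heat shock genes that gave the lowest p-values in the comparison were searched in the same way for GAANNTTC, a core of the heat shock element that reads the same on both strands. The windows of Hspa1a and Hspa1b, neighbouring genes of the inducible chaperone HSP70, are shown because their near identity bears on how their reads were counted.

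Hspa1a: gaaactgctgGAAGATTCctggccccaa
Hspa1b: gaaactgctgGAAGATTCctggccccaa

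They lie on the minus strand at chr17:34972243-34972270 and chr17:34959325-34959352, each 104 bases before the start. The 300-base promoter windows of this pair were identical at 296 positions. Of the 100-base stretches of the Hspa1a transcript 47.1% also occurred in Hspa1b. Reads from such shared stretches may not be assignable to either gene, so the levels of both are less certain. The motif was present in 8 of the 10 heat shock genes with a window, against 7.1% of tested genes with a window.

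Totals per library ran from 86276988 to 140464734 counts in the 6 SFN-fed libraries and from 107847897 to 391701247 counts in the 7 on the control diet, a mean log2 difference of -1.16 (exact permutation test over 1716 arrangements, two-sided, p = 0.0035). The library names fall into a series beginning with Astro (SFN-fed replicates 4, 5 and 6, control-diet replicates 2 and 4) and a numbered series (SFN-fed replicates 1, 3 and 7, control-diet replicates 1, 3, 5, 6 and 7), and the first principal component, with 28.95% of the variance, separated these series. What the names stand for is not given in the sources used here. Among the numbered cKOAstro libraries the first number was 143 or 147 with SFN and 141 or 146 with the control diet. In the ConAstro libraries fitted below it was 145 or 147 with SFN and 143 with the control diet. In neither set can diet and first number be told apart. Control-diet cKOAstro replicate 2, labelled male, held 1541 CPM of Xist and 0.0077 CPM of Ddx3y. The other 12 libraries of the comparison held at most 0.586 CPM of Xist and at least 83.6 CPM of Ddx3y. SFN-fed replicate 4 stood apart on the second component and held the most oligodendrocyte transcripts.

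No gene changed with the SFN diet past the threshold of the main test. Of 17015 genes tested with edgeR's quasi-likelihood test, 0 (0%) had an adjusted p below 0.05 (Benjamini-Hochberg), and the lowest adjusted p was 0.662. At an unadjusted p below 0.05 there were 1180 genes (6.94%), of which 517 (3.04%) had higher and 663 (3.9%) lower values in SFN-fed mice. limma-voom also called 0 genes, with 1605 at an unadjusted p below 0.05, while DESeq2 called 5 and gave 1684 at an unadjusted p below 0.05. The ranges of the 2 diets did not overlap for 16 genes with higher values (0.094%) and for 6 with lower values (0.0353%). The median log2 fold change over all genes tested was 0.011. With the name series as a term 0 genes (0%) passed and 1247 (7.33%) had an unadjusted p below 0.05.

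The 76 tested genes of 5 lists on NRF2 and redox defense differed little between the diets. Of these, 58 had higher and 18 lower mean values in SFN-fed cKOAstro mice, the median log2 fold change was 0.055, and the range of the SFN-fed libraries overlapped that of the control-diet libraries for 76 of 76. None passed the adjusted test by edgeR, DESeq2 or limma-voom, and 7 (9.2%) had an unadjusted p below 0.05, near the 6.94% of all genes. With the name series as a term 3 did, against 7.33% of all genes, and the median was 0.072. The 95% confidence interval of the log2 fold change lay within ±0.5 for 64 of the 76 and within ±1 for 76. In SFN-fed against control-diet ConAstro mice (4 against 4 libraries) 33 of the same 76 genes had higher values, with a median log2 fold change of -0.0074.

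**Figure D1:**
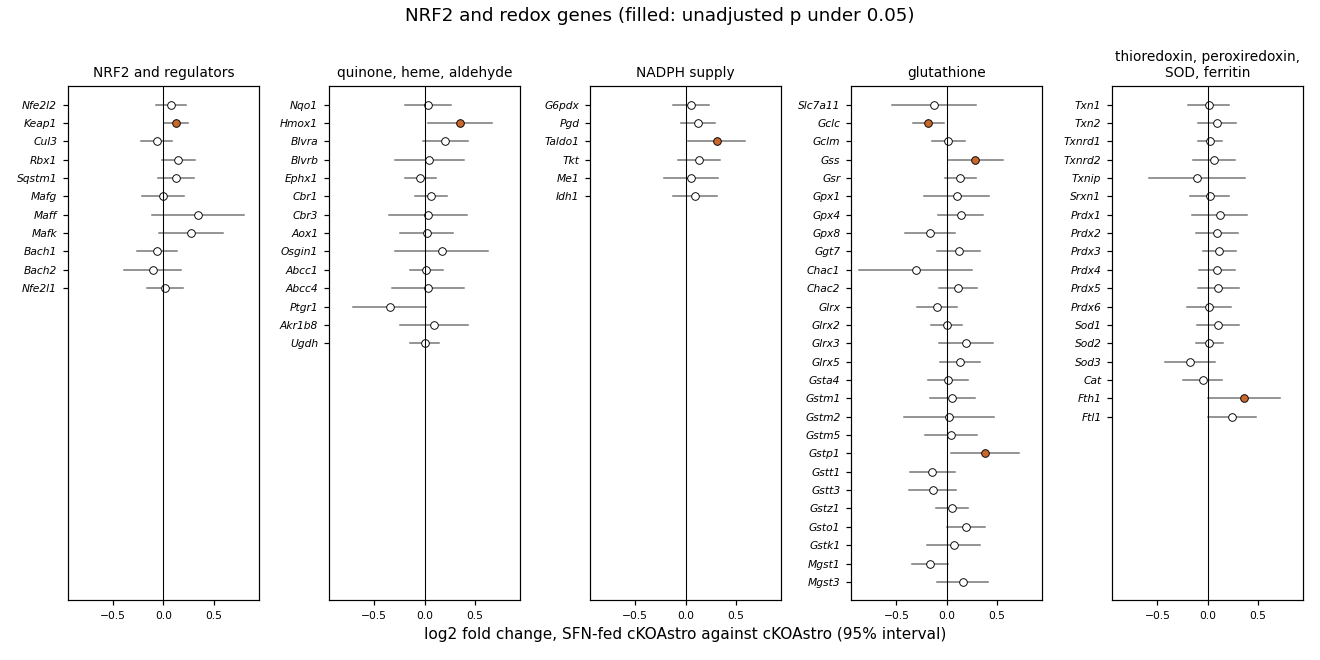
Log2 fold change of SFN-fed over control-diet cKOAstro astrocytes (x axis, with bars for the 95% interval) for each of the 76 tested NRF2 and redox genes, in 1 panel per list, with filled points for an unadjusted p below 0.05. Most points lie near 0, the intervals of 64 genes lie within ±0.5, and the 7 filled points are Keap1, Hmox1, Taldo1, Gclc, Gss, Gstp1 and Fth1.

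Among NRF2 and its regulators, Nfe2l2 ranged from 67.2 to 79.1 CPM (median 74.4) with SFN and from 62.6 to 82.2 CPM (median 70.5) without. The diets overlapped almost wholly, with a log2 fold change of 0.074 ± 0.069, where the value after ± is the SE, as for every log2 fold change below. Keap1, the sensor that SFN modifies, ranged from 63.7 to 79.6 CPM (median 70.8) with SFN and from 62.2 to 69.9 CPM (median 65.9) without, a log2 fold change of 0.12 ± 0.057. Its highest value was in SFN-fed replicate 4, and without that library the log2 fold change was 0.076 (unadjusted p = 0.147 by edgeR). Cul3, the ligase scaffold, had a log2 fold change of -0.068, and Sqstm1, the autophagy receptor p62, had 0.13. The small MAF partners differed among themselves, at 0.34 for Maff, 0.27 for Mafk and -0.0051 for Mafg, all with intervals that include 0. Bach1, a repressor at the same DNA element, had a log2 fold change of -0.062, with an interval of -0.26 to 0.14. Over the 11 regulators 7 had higher values and the median log2 fold change was 0.074.

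Nqo1, the quinone reductase widely used as a readout of NRF2, ranged from 6.44 to 10.4 CPM (median 9.32) in SFN-fed and from 7.72 to 9.79 CPM (median 8.87) in control-diet cKOAstro mice. Its log2 fold change was 0.037 ± 0.11, with an interval of -0.19 to 0.27, which excludes a log2 fold change of 1. Hmox1, which opens the heme ring, ranged from 11.6 to 23.3 CPM (median 14.2) with SFN and from 10.97 to 13.5 CPM (median 12.3) without. Its upper SFN-fed values exceeded the highest control value while the lower ones overlapped, and the log2 fold change was 0.35 ± 0.15 (unadjusted p = 0.0328 by edgeR). It was 0.57 in the numbered libraries, 0.15 in the Astro-named ones and 0.0054 in ConAstro mice. Blvra, biliverdin reductase and the next step of heme breakdown, had a log2 fold change of 0.21, and its relative Blvrb had 0.049. Ptgr1, which reduces reactive alkenals, ranged from 3.82 to 6.43 CPM with SFN and from 5.21 to 9.98 CPM without, the lowest fold change of this list at -0.35 ± 0.17. The carbonyl reductases Cbr1 (0.064) and Cbr3 (0.031), the aldehyde oxidase Aox1 (0.021) and the exporter Abcc1 (0.016) lay close to 0. Of the 14 detoxification genes 12 had higher values, with a median log2 fold change of 0.036.

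In glutathione synthesis the 2 subunits of the rate-limiting enzyme had fold changes of different sign, a difference that was not itself tested. Gclc, the catalytic subunit, ranged from 52.6 to 71.2 CPM (median 65.1) with SFN and from 66.9 to 80.9 CPM (median 73.3) without, with a log2 fold change of -0.18 ± 0.071 (unadjusted p = 0.0226 by edgeR). It was the 1 gene of the 76 with a lower value at an unadjusted p below 0.05, and it was -0.29 in the numbered and -0.042 in the Astro-named libraries. Gclm ranged from 58.9 to 76.9 CPM (median 74.2) with SFN and from 64.4 to 79.3 CPM (median 70.5) without, and its log2 fold change was 0.015 ± 0.076. Slc7a11, the cystine importer that feeds this pathway, ranged widely in both diets, from 201 to 476 and from 259 to 492 CPM, with a log2 fold change of -0.13 ± 0.19. Gsr, which recycles oxidized glutathione, had a log2 fold change of 0.14, and the peroxidases Gpx1 and Gpx4 had 0.098 and 0.14. Among the glutathione S-transferases Gstm1, the most abundant in CPM, ranged from 516 to 619.9 CPM with SFN and from 423 to 633 CPM without, a log2 fold change of 0.056 ± 0.10. Over the 27 genes of this list 18 had higher values and the median log2 fold change was 0.055.

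The genes of NADPH supply, thioredoxin recycling and peroxide removal had slightly higher values on average. Srxn1, sulfiredoxin, ranged from 27.2 to 33.7 CPM with SFN and from 23.6 to 35.01 CPM without, and its log2 fold change was 0.021 ± 0.090. Txnrd1 ranged from 55.6 to 68.4 CPM with SFN and from 59.1 to 66.7 CPM without, a log2 fold change of 0.019 ± 0.056. Both therefore stayed within about the same range under either diet. The pentose phosphate enzyme G6pdx had a log2 fold change of 0.053 ± 0.085, and Prdx1 had 0.12 ± 0.13 with a range of 217 to 362 against 215 to 316 CPM. Catalase (Cat) had -0.052, and the superoxide dismutases Sod1, Sod2 and Sod3 had 0.097, 0.015 and -0.18. All 6 NADPH genes had higher values (median log2 fold change 0.11), as did 15 of the 18 thioredoxin, peroxiredoxin, superoxide dismutase and ferritin genes (median 0.077). Without SFN-fed replicate 1 the latter median was 0.0054 and 10 of 18 were higher.

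A single SFN-fed library held much of what stood out among the redox genes. Taldo1, transaldolase, was at 445 CPM in SFN-fed replicate 4 and between 216 and 295 CPM in the other 5, against 206 to 272 CPM with the control diet. Gss, glutathione synthetase, was at 80.8 CPM there and at most 51.4 CPM in the other SFN-fed libraries, against 38.2 to 46.4 CPM. Gstp1, the pi-class transferase, was at 365 CPM there and at most 219 CPM in the others, against 149 to 195 CPM. Each of these genes, and the ferritin heavy chain Fth1 (4009 CPM in that library), peaked in the library with the most oligodendrocyte transcripts, and the part of those cells in the result was not tested. With all 6 SFN-fed libraries the log2 fold changes were 0.31, 0.29, 0.38 and 0.36, and without replicate 4 they were 0.14, 0.11, 0.17 and 0.17. Without that library 3 of the 76 genes had an unadjusted p below 0.05, a smaller share than the 846 of 17177 over all genes tested. They were Hmox1 (0.37), Gclc (-0.23) and Mgst1, a microsomal glutathione transferase (-0.20).

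Redox genes with the antioxidant response motif in their promoter window had about the same fold changes as those without it. The median log2 fold change was 0.053 for the 17 genes with the motif and 0.066 for those without. An unadjusted p below 0.05 occurred for 0 of the 17 genes with it and for 5 (9.62%) of those without. Over all tested genes with a window these shares were 6.23% with and 6.99% without the motif. The medians over those genes were 0.019 with and 0.014 without it.

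The gene with the lowest p-value was Hspa1a (chr17:34969190-34972156, minus strand), which encodes the inducible HSP70. In the 7 control-diet cKOAstro libraries it ranged from 14.5 to 29.9 CPM (median 19.1), with the highest value in replicate 2. In SFN-fed replicates 1, 3, 4, 5, 6 and 7 it was at 41.3, 37.3, 70.3, 55.9, 27.2 and 35.2 CPM. All SFN-fed libraries except replicate 6 lay above every control library, and replicate 6 lay below control replicate 2 alone. The log2 fold change was 1.18 ± 0.21 (95% interval 0.72 to 1.63), with an unadjusted p of 6.91e-05 and an adjusted p of 0.662 in edgeR's quasi-likelihood test, and DESeq2 gave an adjusted p of 0.00184. Without SFN-fed replicate 4 it was 0.99, without control replicate 2 it was 1.31, and it was 1.02 in the numbered and 1.20 in the Astro-named libraries. In the numbered libraries alone the edgeR adjusted p was 0.0185.

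Hspa1b (chr17:34956436-34959238, minus strand) followed it, with the reservation on shared reads given above. It ranged from 34.2 to 85.9 CPM (median 44.1) with SFN and from 16.5 to 55.8 CPM (median 20.9) without, where 55.8 CPM was again control replicate 2 and the next was 24.3 CPM. The log2 fold change was 1.05 ± 0.29 (unadjusted p = 0.00311 by edgeR) and 0.99 in the numbered libraries (adjusted p 0.0185 by edgeR).

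**Figure D2:**
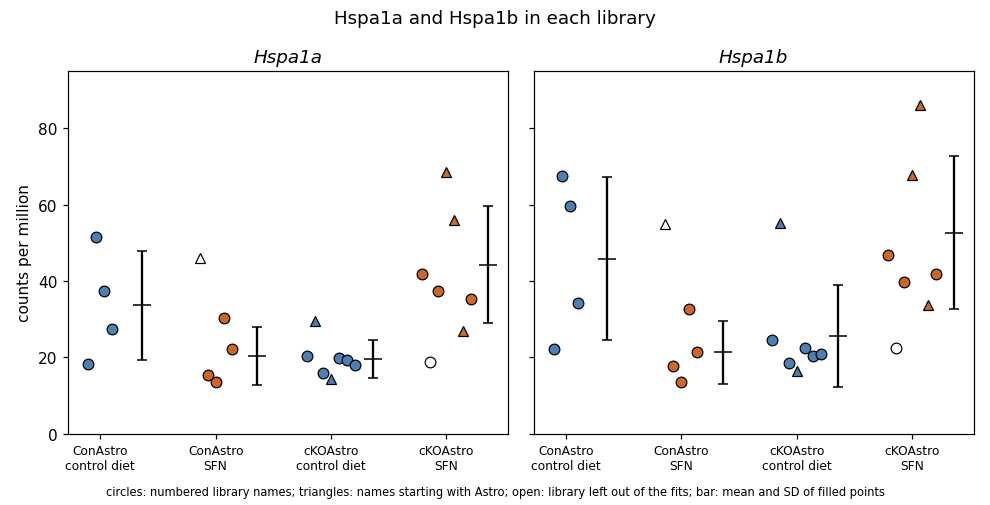
Hspa1a and Hspa1b in CPM (y axis) in each library of the 4 groups, with circles for numbered library names, triangles for names starting with Astro, open symbols for the libraries left out of the fits, and a bar for the mean and SD of the filled points. In cKOAstro mice most SFN-fed libraries lie above those on the control diet, whereas in ConAstro mice the mean of the SFN-fed libraries lies below that of the control diet.

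The SFN diet went with the opposite order of Hspa1 values in ConAstro mice. On the scale of all 23 libraries Hspa1a was at 18.2, 51.5, 37.4 and 27.5 CPM in the 4 control-diet ConAstro libraries and at 15.4, 13.5, 30.2 and 22.2 CPM in SFN-fed ConAstro replicates 2 to 5. The groups overlapped, with a log2 fold change of -0.74 ± 0.35 for SFN in ConAstro mice (unadjusted p = 0.0636 by edgeR). The interaction of genotype and diet was 1.91 ± 0.41 on the log2 scale for Hspa1a (adjusted p = 0.359 by edgeR) and 2.16 ± 0.51 for Hspa1b (adjusted p = 0.422 by edgeR). Neither passed with edgeR, and DESeq2 called both, with adjusted p-values of 0.00887 and 0.0214. Hspa1a also differed with the first number of the library name on this scale. It lay between 18.0 and 20.4 CPM in the 3 libraries of 141, 15.9 and 19.3 CPM in the 2 of 146, 13.5 and 15.4 CPM in the 2 of 145, 22.2 and 37.4 CPM in the 3 of 147, and 18.2 and 51.5 CPM in the 7 of 143. The 141 and 146 libraries were control-diet cKOAstro samples, the 145 libraries SFN-fed ConAstro samples and the 147 libraries SFN-fed samples of both genotypes. The 143 libraries were control-diet ConAstro and SFN-fed cKOAstro samples, with SFN-fed cKOAstro replicate 2, left out of the fits, among them at 18.9 CPM. The part of this number in the Hspa1 result was not tested. Within the numbered cKOAstro libraries, and within the ConAstro libraries fitted, it cannot be told apart from diet.

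Other chaperones shared the direction at a smaller size. Of the 13 tested heat shock genes 13 had higher values in SFN-fed cKOAstro mice, with a median log2 fold change of 0.16, and 3 had an unadjusted p below 0.05 against 3.04% of all genes. The third was Dnajb1, an HSP70 co-chaperone named here after its values were seen, which ranged from 59.99 to 111 CPM (median 64.4) with SFN and from 40.8 to 65.7 CPM (median 50.97) without, a log2 fold change of 0.44 ± 0.16. The chaperones most abundant in CPM had smaller differences, at 0.18 for Hsp90ab1, 0.21 for Hspa8, 0.046 for Hsp90aa1 and 0.078 for Hspa5, the chaperone of the endoplasmic reticulum. Without SFN-fed replicate 5 the list median was 0.091 and 9 of 13 were higher. With the name series as a term 10 of 13 were higher and the median was 0.10. In that fit 3 of 13 had an unadjusted p below 0.05, against 7.33% of all genes. In ConAstro mice 13 of 13 had lower values with SFN (median -0.25, with 5 at an unadjusted p below 0.05, where the share of all genes was 8.41%). There diet and the first number of the library name cannot be told apart. The interaction was positive for 13 of 13 (median 0.42), with 7 at an unadjusted p below 0.05 against 8.32% of all genes, and 0 passed the adjusted test by edgeR and 2, Hspa1a and Hspa1b, by DESeq2. The heat shock genes with GAANNTTC in their window had a median log2 fold change of 0.16 in cKOAstro mice and those without had 0.26.

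The other genes of lowest p with higher values were mostly small shifts in broadly expressed genes. Fam219b (chr9:57537528-57543184, plus strand), of unclear function, ranged from 28.5 to 32.99 CPM with SFN and from 24.6 to 28.4 CPM without, so the ranges did not overlap. Its log2 fold change was 0.25 ± 0.054 with an edgeR adjusted p of 0.662 and a DESeq2 adjusted p of 0.00962. Abcb6 (chr1:75171717-75180392, minus strand), a mitochondrial porphyrin transporter, ranged from 23.8 to 27.1 CPM with SFN and from 20.2 to 22.7 CPM without, again with no overlap. Its log2 fold change was 0.21 ± 0.054, and the adjusted p was 0.662 with edgeR and 0.0217 with DESeq2. Nob1, an endonuclease of ribosomal RNA maturation, ranged from 22.2 to 25.5 CPM against 17.6 to 21.2 CPM without overlap, a log2 fold change of 0.23 ± 0.062. Phf23, a PHD-finger protein (0.26), Thumpd1, an adaptor of tRNA acetylation (0.29), and Samd1, a CpG island reader (0.26), were alike in size. The larger differences were in low genes of the immune system, with Cxcl2, a neutrophil chemokine, at 5.22 ± 1.04 CPM with SFN and 2.81 ± 0.930 CPM without (SD) and a log2 fold change of 0.89 ± 0.22. Tnfsf9, the ligand of 4-1BB, had 0.56 ± 0.14. In ConAstro mice the log2 fold change of Cxcl2 with SFN was 0.81.

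Among the genes with lower values Krt15 (chr11:100131758-100135928, minus strand), an intermediate filament of epithelial cells, was at 1.88 ± 0.500 CPM with SFN and 4.03 ± 1.36 CPM without (SD), ranging from 1.29 to 2.50 and from 1.80 to 6.25 CPM. Its log2 fold change was -1.10 ± 0.25, with an adjusted p of 0.662 in edgeR and 0.0484 in DESeq2. Trp63, the epithelial transcription factor p63, had a log2 fold change of -0.54 ± 0.13, and Gpr55, a lipid-sensing receptor, had -0.91 ± 0.21. Xpc, a sensor of DNA damage, ranged from 32.2 to 35.97 CPM with SFN and from 36.6 to 42.7 CPM without, so the ranges did not overlap at a log2 fold change of only -0.20 ± 0.052. Htr5b, a serotonin receptor, also had no overlap, at 3.57 to 6.24 against 6.52 to 16.4 CPM, and 16.4 CPM was control replicate 7 alone. Gprc5c, an orphan receptor, had a log2 fold change of -0.53 ± 0.15 in cKOAstro and 0.43 in ConAstro mice. The remaining genes of lowest p were Pcdhb19, a protocadherin (-0.56), Rab36, a small GTPase (-0.32), Loxl2, a lysyl oxidase (-0.65), and Ptpn13, a tyrosine phosphatase (-0.32). The fifth gene that DESeq2 called, the predicted gene Gm5084, had a log2 fold change of -0.98 in edgeR.

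**Figure D3:**
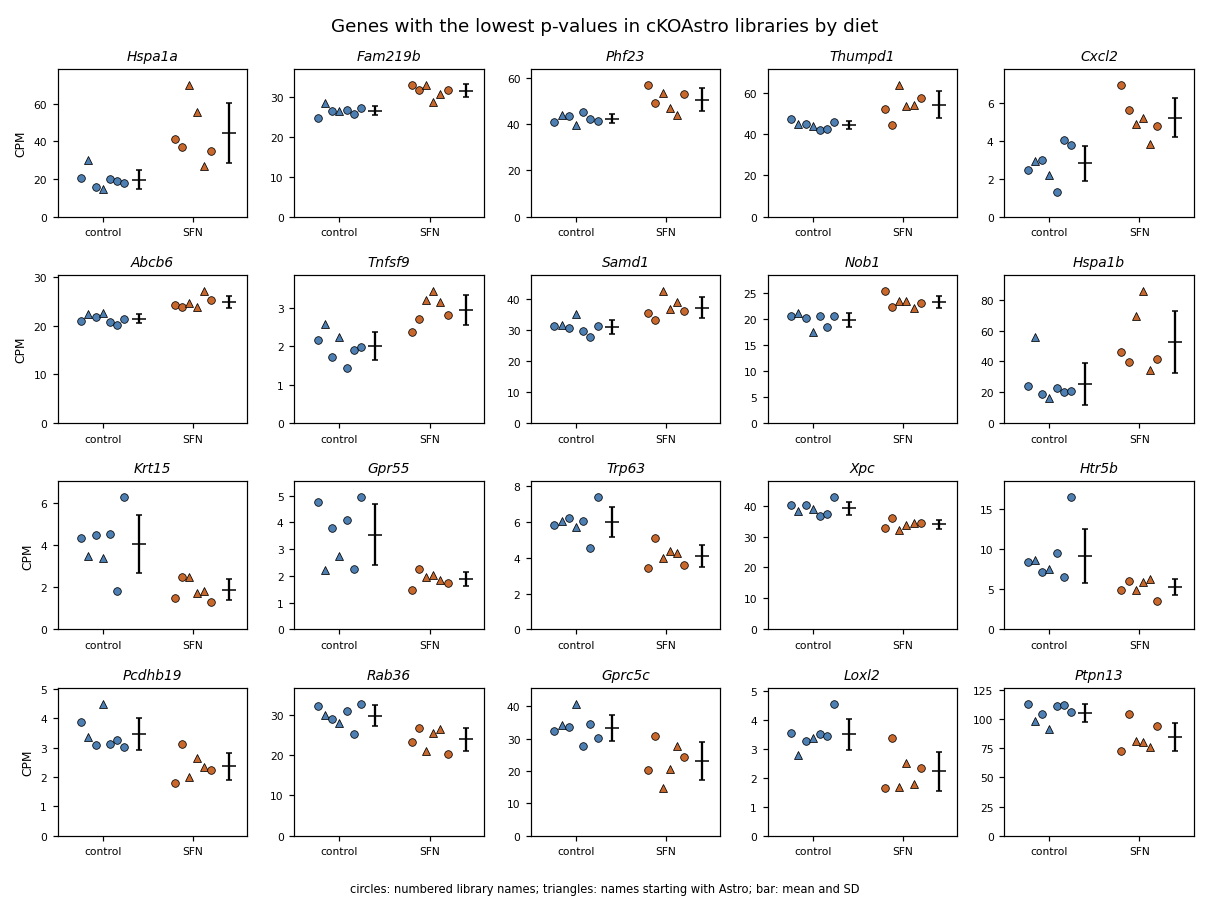
CPM (y axis, from 0) of the 20 genes with the lowest p-values, higher genes in the upper rows and lower genes in the others, in each of the 13 cKOAstro libraries by diet, with circles for numbered library names, triangles for names starting with Astro and a bar for the mean and SD. The ranges of the diets are apart for Fam219b, Abcb6, Nob1, Xpc and Htr5b and overlap for Hspa1a, Hspa1b and Krt15.

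In the numbered libraries alone (3 SFN-fed against 5) edgeR called 4 genes, Hspa1a, Hspa1b, Tmem252 and Grrp1, of which Tmem252 and Grrp1 are named here after their values were seen. Tmem252, a membrane protein, had a log2 fold change of 1.65 (adjusted p 0.0264 by edgeR) in the numbered and 0.18 in the Astro-named libraries, and Grrp1 had 1.26 (adjusted p 0.0396 by edgeR) and -0.72. In the Astro-named libraries alone (3 against 2) edgeR called 0 genes, with 507 at an unadjusted p below 0.05.

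The nuclear genes of the respiratory chain had slightly higher values with SFN in cKOAstro mice and lower values with SFN in ConAstro mice. In cKOAstro mice 76 of 76 were higher. The median log2 fold changes were 0.11 for complex I, 0.086 for complexes II and III, 0.15 for complex IV and 0.086 for ATP synthase. Of the 76 genes 0 had an unadjusted p below 0.05, against 6.94% of all genes. Of complex I, the NADH dehydrogenase, Ndufv1 had a log2 fold change of 0.18 ± 0.085, lying between 146 and 193 against 130.1 and 156 CPM. Sdha, the flavoprotein of complex II, had 0.065 ± 0.074, Cox4i1 of complex IV had 0.18 ± 0.13, and the catalytic ATP synthase subunit Atp5b had 0.079 ± 0.082. Summed over complex I, SFN-fed replicate 1 stood highest at 2956 CPM, with a median of 2262 CPM over the 6 SFN-fed and 2269 CPM over the 7 control libraries, and without that library the median log2 fold change of complex I was 0.028 with 24 of 36 higher. In ConAstro mice 71 of 76 had lower values with SFN (median -0.10), and 21 had an unadjusted p below 0.05, against 8.41% of all genes. In those libraries diet and the first number of the name cannot be told apart. The interaction was positive for 75 of 76, with a median of 0.21, and 8 had an unadjusted p below 0.05, against 8.32% of all genes, while 0 passed the adjusted test by edgeR. None of the 13 mitochondrially encoded subunits on the list was in the table.

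For cytosolic ribosomal protein genes, which encode the translation machinery, the size of the difference also depended on 1 library, while its direction mostly did not. All 76 had higher values with SFN (median log2 fold change 0.18), and 4 (5.3%) had an unadjusted p below 0.05, against 6.94% of all genes, named here after their values were seen as Rpl3 (0.22), Rpl6 (0.21), Rpl14 (0.22) and Rps6 (0.21). With the name series as a term 14 of 76 had an unadjusted p below 0.05, against 7.33% of all genes, and the median was 0.21. Of the genes most abundant in CPM, Rpl4 had a log2 fold change of 0.17 ± 0.092 and Rpl8 0.20 ± 0.10. The summed level was 10982 CPM in SFN-fed replicate 1, 7846 CPM at the median of the SFN-fed libraries and 7509 CPM at that of the control libraries. Without replicate 1 the median log2 fold change was 0.062 with 74 of 76 higher, and limma-voom with all libraries gave 0.047.

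Immediate early genes, known to be induced by tissue dissociation as well as by activity, had higher values in 20 of 21 cases (median log2 fold change 0.20). An unadjusted p below 0.05 occurred for 2 of 21 (9.5%), against 6.94% of all genes. These were Atf3 (0.45 ± 0.18) and Klf4 (0.48 ± 0.19), a stress-induced factor and a Krüppel-like factor, both named after their values were seen. With the name series as a term 11 of 21 had an unadjusted p below 0.05, against 7.33% of all genes, with a median of 0.25. Among the most abundant in CPM, log2 fold changes were 0.10 for Jund, 0.12 for Jun, 0.14 for Fos and 0.25 for Dusp1, a MAP kinase phosphatase. In ConAstro mice the list median for SFN was 0.29 and 17 of 21 were higher. There 5 of 21 had an unadjusted p below 0.05, against 8.41% of all genes. Diet and the first number of the library name cannot be told apart in those libraries.

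Antigen presentation and interferon genes had higher values for 21 of 22, with a median log2 fold change of 0.19. Of the 22 genes 1 had an unadjusted p below 0.05, against 6.94% of all genes. With the name series as a term 13 of 22 had an unadjusted p below 0.05, against 7.33% of all genes, and the median was 0.28. Ifi27, an interferon-induced gene, had a log2 fold change of 0.30 ± 0.12 (unadjusted p = 0.0244 by edgeR), the class I light chain B2m had 0.52 ± 0.27, and the heavy chain H2-K1 had 0.22 ± 0.15. B2m ranged from 65.7 to 278 CPM with SFN and from 62.4 to 149 CPM without. Microglial markers differed between the name series beside this result, with sums from 1276 to 4058 CPM in the numbered and 418 to 701 CPM in the Astro-named SFN-fed and control libraries. Without SFN-fed replicate 1 the list median was 0.046 with 14 of 22 higher, and limma-voom gave -0.01, on the other side of 0.

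Genes of the ion and transmitter work of astrocytes had mostly lower values with SFN, without passing any test. Potassium and water channel genes were lower for 13 of 17 (median log2 fold change -0.087). Aqp4, the water channel of endfeet, ranged from 398 to 862 CPM with SFN and from 657 to 925 CPM without, a log2 fold change of -0.30 ± 0.15. Kcnj10, the inward rectifier Kir4.1, had -0.11 ± 0.12, the gap junction gene Gja1 -0.079 ± 0.12 and the bicarbonate transporter Slc4a4 -0.18 ± 0.15. Glutamate and GABA genes were lower for 11 of 14 (median -0.093). Slc1a2, the glutamate transporter GLT-1, ranged from 6154 to 13144 CPM with SFN and from 8154 to 13649 CPM without, a log2 fold change of -0.21 ± 0.17. Glul, glutamine synthetase, had 0.13, and the GABA transporter Slc6a11 had -0.11. In the numbered libraries the median of this list was 0.034 with 9 of 14 higher, and in the Astro-named it was -0.21 with 0 of 14 higher.

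Na,K-ATPase subunits, the pumps that drive these transporters, split evenly, with 4 of 8 higher and a median log2 fold change of 0.0055. Atp1b2, a beta subunit of astrocytes, had -0.13 ± 0.13. Voltage-gated sodium channel genes were lower for 9 of 10 (median -0.16), and Scn7a, the sodium sensor channel, named after its values were seen, had -0.59 ± 0.26 (unadjusted p = 0.0395 by edgeR). The summed level of this list was lowest in SFN-fed replicate 4, at 88.05 CPM against 137 to 169 CPM in the other SFN-fed libraries, and without that library the median was -0.051.

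Genes of lysine catabolism and vitamin B6, the pathway in which ALDH7A1 acts, had lower values for 7 of 11 other members (median log2 fold change -0.21). Of these 11 genes 0 had an unadjusted p below 0.05, against 6.94% of all genes. Crym, a ketimine reductase that also binds thyroid hormone, ranged from 10.5 to 57.99 CPM with SFN and from 7.44 to 87.2 CPM without, so its log2 fold change of -0.74 ± 0.49 was small beside its spread. Pdxk, pyridoxal kinase, had 0.33 ± 0.24, ranging from 126 to 398 against 124 to 261 CPM, and Gcdh, glutaryl-CoA dehydrogenase, had 0.13 ± 0.092. Without SFN-fed replicate 4 the list median was -0.078.

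Cholesterol synthesis genes had higher values for 17 of 22 (median log2 fold change 0.04), with Hmgcs1, HMG-CoA synthase, at 0.078 ± 0.13 and Srebf2, the controlling factor, at -0.023 ± 0.087. Fdps, farnesyl diphosphate synthase, named after its values were seen, had 0.20 ± 0.085 (unadjusted p = 0.0359 by edgeR). Without SFN-fed replicate 1 the median was -0.0063 and 10 of 22 were higher.

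Genes of reactive astrocytes were lower for 12 of 18 (median log2 fold change -0.098). Gfap, the classic marker, ranged from 80.1 to 161 CPM with SFN and from 105 to 134 CPM without, a log2 fold change of -0.14 ± 0.14, and Vim, vimentin, had -0.084 ± 0.17. C4b, a complement gene, had higher values (0.31 ± 0.12), as did Serpina3n (0.25 ± 0.11). Timp1, a protease inhibitor, had lower ones (-0.66 ± 0.29). Of the 18 genes these 3 (16.7%) had an unadjusted p below 0.05, against 6.94% of all genes. Serpina3n and Timp1 are named after their values were seen. Fkbp5, induced by glucocorticoids, ranged from 4.59 to 251 CPM with SFN and from 6.16 to 161 CPM without, so the diets overlapped widely and its log2 fold change of 0.93 ± 0.86 was near its SE.

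**Figure D4:**
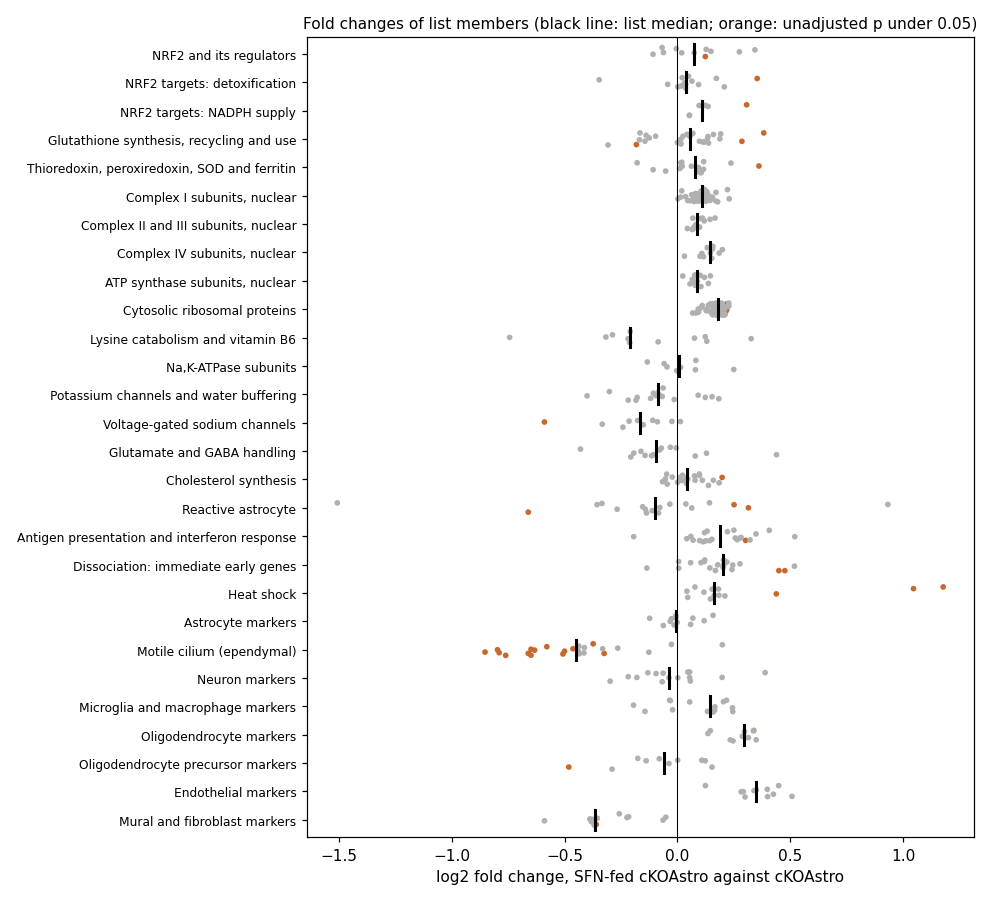
Log2 fold change of SFN-fed over control-diet cKOAstro astrocytes (x axis) for every tested gene of each list (points), with a black line at the list median and orange points for an unadjusted p below 0.05. Respiratory chain, ribosomal and heat shock genes lie above 0 throughout, and 23 of 24 motile cilium genes lie below 0.

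The sorted material held astrocyte transcripts together with those of other cells. Per kilobase of merged exon, the astrocyte genes Aldoc and Aldh1l1 were at 919 to 1258 and 70.4 to 98.1 CPM per kb with SFN, and at 786 to 1258 and 58.1 to 94.6 CPM per kb without. The myelin gene Mbp was at 306 to 679 CPM per kb with SFN and 346 to 418 CPM per kb without, below the values of Aldoc and above those of Aldh1l1 in every library. Astrocyte markers summed to between 22097 and 33274 CPM with SFN and to between 19711 and 28993 CPM without, with 4 of 12 higher and a median log2 fold change of -0.0077. In such bulk samples fewer cells of a type and less RNA per cell cannot be told apart.

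**Figure D5:**
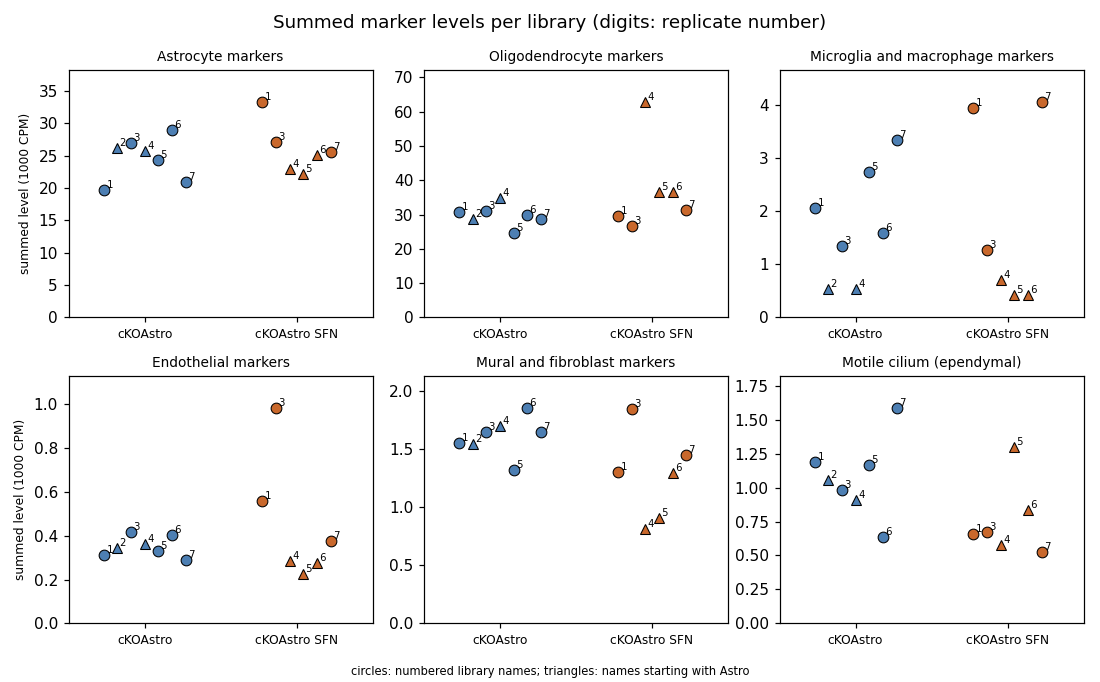
Summed CPM (y axis, in units of 1000 CPM) of 6 marker lists in each of the 13 cKOAstro libraries by diet, with the replicate number beside each point, circles for numbered library names and triangles for names starting with Astro. SFN-fed replicate 4 stands at 62833 CPM of oligodendrocyte markers and SFN-fed replicate 3 at 983 CPM of endothelial markers. Motile cilium sums lie below 909 CPM in every SFN-fed library but replicate 5. The diets overlap there, with control-diet replicate 6 at 639.7 CPM.

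Motile cilium genes, which mark the ependymal cells that line the ventricles, gave the largest share of low p-values among the lists. Of the 24 tested, 23 had lower values with SFN, 14 (58.3%) had an unadjusted p below 0.05 against 3.9% of all genes in that direction, and 0 passed the adjusted test by edgeR. The median log2 fold change was -0.45. Summed CPM in SFN-fed replicates 1, 3, 4, 5, 6 and 7 were 659.7, 675, 576, 1303, 835 and 525, and in control-diet replicates 1 to 7 they were 1189, 1054, 981, 909, 1164, 639.7 and 1587. All SFN-fed libraries except replicate 5 lay below every control library other than replicate 6, and SFN-fed replicate 5 lay above every control library other than replicate 7. Hydin, of the central pair, and the dynein heavy chain Dnah6 were among the lowest, at -0.85 ± 0.26 and -0.80 ± 0.24. Hydin is named here after its values were seen. Dnah6 ranged from 33.1 to 81.9 CPM with SFN and from 47.4 to 125 CPM without. Foxj1, the factor that drives motile cilium formation, had -0.26 ± 0.24, Ccdc153 -0.51 ± 0.23 and the adenylate kinase Ak7 -0.50 ± 0.23. In the numbered libraries the list median was -0.81 with 21 of 24 at an unadjusted p below 0.05, against 1636 of 17423 genes tested. In the Astro-named libraries it was -0.086 with 0 at that p, against 507 of 17137 genes tested. In the numbered cKOAstro libraries, and in the ConAstro libraries fitted, diet and the first number of the name cannot be told apart. Without control replicate 7 the list median was -0.32 and without SFN-fed replicate 5 it was -0.64. In the fit with the name series it was -0.51, and 14 of 24 had an unadjusted p below 0.05, against 7.33% of all genes. In ConAstro mice 23 of 23 were also lower with SFN (median -0.25). An interaction at an unadjusted p below 0.05 occurred for 0 of 24, against 8.32% of all genes.

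Oligodendrocyte markers had higher values for 11 of 11 (median log2 fold change 0.30), and 62833 of their summed CPM in SFN-fed replicate 4 stood against 26509 to 36711 CPM in the other SFN-fed and 24574 to 34941 CPM in the control libraries. Without that library the median was 0.084 with 8 of 11 higher. Mbp, a myelin protein, had 0.34 ± 0.15 and was 0.19 without it. Endothelial markers were higher for 11 of 11 (median 0.35), but the sum of 983 CPM in SFN-fed replicate 3 stood against 225 to 557 CPM in the others, and without that library the median was -0.062. In the Astro-named libraries it was -0.43. Microglial markers were higher for 9 of 14 (median 0.15) and, without SFN-fed replicate 1, for 1 of 14 (median -0.33). Neuronal markers had a median of -0.038. Oligodendrocyte precursor markers had a median of -0.059, with 4 of 10 higher and 6 lower. Of those most abundant in CPM, Olig1 (0.15), Sox10 (0.11) and Olig2 (0.12) had higher values. Cspg4, the NG2 proteoglycan, had -0.48 ± 0.19 (unadjusted p = 0.0242 by edgeR). Of the red blood cell markers 1, Alas2, was tested, at a log2 fold change of 1.11 ± 0.71.

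Mural and fibroblast markers had lower values with SFN in cKOAstro mice and higher values with SFN in ConAstro mice. In the ConAstro libraries diet and the first number of the library name cannot be told apart. In cKOAstro mice 14 of 14 had lower values with SFN, with a median log2 fold change of -0.36 and sums from 810.5 to 1843 CPM with SFN against 1316 to 1851 CPM without. Pdgfrb, the pericyte PDGF receptor, ranged from 193 to 369.9 CPM with SFN and from 273 to 397 CPM without, a log2 fold change of -0.36 ± 0.15 (unadjusted p = 0.0298 by edgeR). In the fit with the name series 3 of 14 had an unadjusted p below 0.05, against 7.33% of all genes, and the median was -0.30. Vtn, vitronectin, had -0.38 ± 0.18 and Rgs5 -0.37 ± 0.32. In ConAstro mice 14 of 14 had higher values with SFN (median 0.41, with 9 at an unadjusted p below 0.05 against 8.41% of all genes), and the interaction was negative for 14 of 14 (median -0.69), with 8 at an unadjusted p below 0.05 against 8.32% of all genes and 0 past the adjusted test by edgeR.

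A difference between the genotypes in the response to SFN was tested for each gene as an interaction over 21 libraries, 13 of them those above. Of 17264 genes 0 (0%) passed an adjusted p of 0.05 in edgeR (lowest 0.341), 1436 (8.32%) had an unadjusted p below 0.05, and DESeq2 called 25. The SFN diet in ConAstro mice alone gave 0 of 16405 (0%) past the adjusted test by edgeR and 1379 (8.41%) at an unadjusted p below 0.05. Diet and the first number of the library name cannot be told apart in the ConAstro libraries, which also enter the interaction. The lowest p was for Foxd1, a forkhead transcription factor, with means of 5.57 ± 1.40 CPM in SFN-fed and 7.83 ± 1.46 CPM in control-diet cKOAstro mice, and 9.06 ± 1.99 CPM in SFN-fed and 4.70 ± 0.695 CPM in control-diet ConAstro mice (SD). Its interaction was -1.44 ± 0.27 on the log2 scale, with an adjusted p of 0.341 by edgeR and 0.00186 by DESeq2. Nob1 (0.44 ± 0.094) and Hspa1a, described above, were also among the 5 of lowest p, with Med20, a Mediator subunit, and Phospho1, a phosphatase of mineralization, at 0.44 and 0.93. DESeq2 called all 5, with adjusted p-values of 0.00767 for Nob1, 0.00887 for Hspa1a and 0.00186 for both Med20 and Phospho1.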

How the data were processed

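The authors checked reads with FastQC and aligned them to mm10 with STAR, which counted reads per gene; the deposited table holds these raw counts for 24411 genes. The STAR version, annotation and strand setting are not given in the sources used here. Genes were filtered by filterByExpr (minimum count 10, minimum total 15), scaled by TMM and tested in R 4.3.3 with edgeR 4.0.16 quasi-likelihood fits over the 13 libraries, with Benjamini-Hochberg adjustment; DESeq2 1.42.0 and limma-voom with quality weights (limma 3.58.1) were alternatives, as were RLE scaling, no filter, a name series term, a replicate block, thinning to equal depth, each name series alone, all 4 groups together and leaving out each library. The interaction of genotype and diet and the diet in ConAstro mice were fitted on 21 and 8 libraries. The fits were tested on simulated data. Totals, given in the report, differ between diets, and intervals cover only the spread between libraries.

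The members and the 30 gene lists (502 of 521 genes in the table) were chosen with earlier results of these data known. Genes were named by rule: the 3 genotype genes; the 10 per direction of lowest p with a mean of at least 1 CPM, predicted symbols passed over; any redox gene; up to 4 genes of other lists by highest CPM; the 5 lowest interaction p-values; and Xist and Ddx3y. Some genes outside this rule are named in the report after their values were seen. No 2 libraries agreed within sampling noise (lowest chi-square per degree of freedom 49.5). Promoter windows are from RefSeq (GRCm38.p6) and matched 12631 of 17015 tested genes by symbol; gene positions and exon lengths are from GENCODE M21 (GRCm38), which matched 16351. A few results on single genes are not reported here.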

Additional observations from a re-analysis of the deposited data

Results flagged for a closer look

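Of 268 groups of values in which a library could stand apart from the rest by Dixon's test at the 95% level, 19 did (7.1%), where chance flags about 1 in 20. In control-diet cKOAstro mice, replicate 2 was highest for Hspa1a (29.9 CPM, next 20.3) and Hspa1b (55.8 CPM, next 24.3), and it also held the outlying 1541 CPM of Xist (next 0.586) and 0.0077 CPM of Ddx3y (next 88.4), the pattern of a female in a library labelled male. Without this library the log2 fold change of Hspa1a with SFN was 1.31 and that of Hspa1b 1.36.

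SFN-fed cKOAstro replicate 4 was highest for Taldo1 (445 CPM, next 295), Gss (80.8 CPM, next 51.4) and Gstp1 (365 CPM, next 219), and for the summed oligodendrocyte markers (62833 CPM, next 36711) and oligodendrocyte precursor markers (2457 CPM, next 1559). Its part in each result is given in the report as the value without it.

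The other outlying values in SFN-fed libraries were the lowest Nqo1 (6.44 CPM, next 9.02) and the highest Glrx (12.3 CPM, next 10.2), Prdx2 (196 CPM, next 157), Prdx5 (134 CPM, next 100.4) and summed lysine and vitamin B6 genes (718 CPM, next 503). In control-diet libraries they were the highest Htr5b (16.4 CPM, next 9.52), Osgin1 (2.78 CPM, next 1.6) and Glrx5 (31.1 CPM, next 25.5) and the lowest Glrx3 (3.01 CPM, next 3.5) and Sod1 (137 CPM, next 166).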

How the results depend on the processing

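The number of genes past an adjusted p of 0.05 with edgeR was 0 under RLE scaling, no filter, the name series term, thinning, all 4 groups together, the Astro-named libraries alone, without each library in turn, and with SFN-fed replicate 2 kept as labelled. DESeq2 called 5 genes and edgeR called 4 in the numbered libraries alone, and the cause was not tested. Genes at an unadjusted p below 0.05 numbered 1839 with SFN-fed replicate 2 kept, 507 in the Astro-named libraries, and between 735 (without control-diet replicate 5) and 2405 (without SFN-fed replicate 3) when 1 library was left out. With control-diet replicate 2 and SFN-fed replicate 4 both left out, an alternative chosen after seeing the data, 0 genes passed and 1147 had an unadjusted p below 0.05. The interaction gave 25 genes by DESeq2 and 0 under each edgeR setting.

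In the Astro-named libraries alone the median log2 fold changes moved to 0.013 for NRF2 and its regulators, -0.0062 for lysine and vitamin B6 genes, -0.22 for astrocyte markers, 0.42 for oligodendrocyte precursor markers and -0.43 for endothelial markers. The difference in total counts between diets was -1.30 on the log2 scale in the numbered libraries (exact permutation test, p = 0.0536). Same-numbered libraries of the 2 diets did not pair: their correlations ran from -0.29 to 0.26, 2 of 6 were over 0.1, and 0 of 6 correlated best with their own number. With the replicate number as a block 0 genes passed and 929 had an unadjusted p below 0.05. The number of libraries per diet limits the precision to the intervals given in the report.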
